A study of Mus musculus with 2 samples.

Results

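Collagen chain genes were taken as the protein-coding genes whose GENCODE symbol on GRCm38 consists of Col, a type number, the letter a and a chain number. The deposited tables held 44 of them among 39695 gene entries, and all 44 had a value above 0 in both libraries. The tables came from RNA-seq of whole testes of 9-day-old (P9) mice, with 1 library from control and 1 library from Bcas2F/-;Vasa-Cre testes. The control genotype was 1 floxed over 1 deleted *Bcas2* allele without Cre, so both genotypes shared the deleted allele, and in Bcas2F/-;Vasa-Cre males the floxed allele was in addition removed by a Cre that Vasa regulatory sequence drives in germ cells. The strain is C57BL/6 in the labels and a mixed background in the study's methods, and the number of mice behind each library was not given in the sources used here. *Bcas2* encodes a spliceosome component of the Prp19 complex, and the study asked what its loss from germ cells does to the testis.

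Collagens are secreted or membrane-bound proteins in which 3 chains wind into a triple helix, and the helix repeats glycine followed by any pair of residues. Fibril-forming collagens give connective tissue its tensile strength, collagen IV builds the sheet of basement membranes, and the remaining types coat fibrils, form microfibrils or anchor cells. In the testis collagens surround the seminiferous tubules, where peritubular myoid and Sertoli cells lay down the basement membrane on which spermatogonia rest, and fill the interstitium. The somatic cells that make most collagen were not the target of the Cre.

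The collagen chain genes are unusual in how many exons they are spliced from. In the longest annotated protein-coding transcript of each gene, the 44 genes had between 3 and 119 exons. The median was 48 against 7 in 21143 other protein-coding genes, and 29 of the 44 had at least 40. Of their 2000 coding exons, 469 were exactly 54 bases long (23.4%), compared with 847 of 191234 (0.443%) in the other genes. These 54-base exons carry 18 codons of the triple helix, and 452 of the 469 began with a glycine codon and held 6 of them at a spacing of 9 bases. The first exon of this kind in the 3 most abundant chains and in the 3 chains of collagen IX, whose log2 ratios of RPKM + 1 were the highest of the 44 genes, is shown here 5′ to 3′ from GENCODE M21 on GRCm38. Capitals mark the glycine codons (GGN) that open each Gly-X-Y triplet.
Col1a1, exon 8 of 51, chr11:94939904-94939957, plus strand: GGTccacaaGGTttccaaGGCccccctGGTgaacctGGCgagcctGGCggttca
Col1a2, exon 8 of 52, chr6:4515481-4515534, plus strand: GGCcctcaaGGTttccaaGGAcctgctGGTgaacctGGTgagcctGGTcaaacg
Col3a1, exon 6 of 51, chr1:45325360-45325413, plus strand: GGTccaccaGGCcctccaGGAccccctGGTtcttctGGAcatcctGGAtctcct
Col9a1, exon 11 of 38, chr1:24202014-24202067, plus strand: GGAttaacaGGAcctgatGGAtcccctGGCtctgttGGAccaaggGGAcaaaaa
Col9a2, exon 5 of 32, chr4:121043696-121043749, plus strand: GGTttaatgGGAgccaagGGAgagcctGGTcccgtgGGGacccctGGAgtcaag
Col9a3, exon 6 of 33, chr2:180601582-180601635, plus strand: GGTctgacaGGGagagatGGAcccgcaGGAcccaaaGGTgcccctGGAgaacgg

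The exons printed for *Col1a1* and *Col1a2* matched at 42 of 54 bases, and those for *Col1a1* and *Col3a1* at 35. The number of 54-base exons varied widely between the genes, also within a sub-family. Among the FACITs, collagens that attach to the surface of fibrils, it ran from 4 in *Col12a1* to 28 in *Col22a1*. *Col1a1* had 21, *Col1a2* and *Col3a1* had 24 each and each of the 3 collagen IX genes had 14, whereas *Col4a1* had 2 among 52 coding exons, and 4 genes (*Col8a1*, *Col8a2*, *Col10a1* and *Col26a1*) had none. The longest unbroken run of Gly-X-Y triplets was 338 in *Col1a1*, 339 in *Col1a2* and 344 in *Col3a1*, 113 in each collagen IX chain, and 40 in *Col4a1*, whose helix is interrupted many times. Despite the repetitive code, the genes shared little sequence that could misplace reads. Of all 50-base words in the longest transcript of each gene, none in *Col1a1* or *Col1a2* recurred in another gene, and the shared part was largest in *Col9a3* (6.17%, with *Tcfl5*), *Col4a3* (5.49%, with the antisense *C430014B12Rik*), *Col6a6* (3.88%) and *Col6a5* (3.48%, with *Col6a6*).

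The targeted gene was examined first. *Bcas2* had 39.5 RPKM (reads divided by gene length and by the total of the library) in control and 25.7 RPKM in Bcas2F/-;Vasa-Cre testes, which is a log2 ratio of −0.60 and rests on 1410 and 888 reads. Differences are given throughout as the log2 ratio of RPKM + 1 in Bcas2F/-;Vasa-Cre over control, which understates the difference of low genes, and were summarised over the genes with a mean of 1 RPKM or more. With 1 library per genotype no difference had a replicate check, and no p-value or standard deviation between animals can be given. Whole reads recovered from the RPKM values (19918750 in control and 19331687 in Bcas2F/-;Vasa-Cre) gave 95% Clopper-Pearson intervals of the log2 RPKM ratio without a pseudocount, and these cover counting error only.

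Collagen RNA was abundant in P9 testes and its total was nearly the same in both libraries. The 44 genes took 150230 of the control reads, or 0.754% (95% Clopper-Pearson interval 0.750 to 0.758), and 147374 of the Bcas2F/-;Vasa-Cre reads, or 0.762% (0.758 to 0.766). *Col1a1*, *Col1a2* and *Col3a1*, the chains of collagens I and III, supplied 50.6% of the collagen reads in control and 50.9% in Bcas2F/-;Vasa-Cre testes. For 26 of the 44 genes, *Col1a2* among them, more than 1 read count fits the RPKM values at lengths near the mean of the gene's transcripts. Lengths farther from that mean were not counted, so the read counts of the other genes need not be unique either. These shares of reads rest on the counts used, and their intervals do not cover that choice. Recovered reads of all genes summed to 100.9% of the control library and 100.7% of the Bcas2F/-;Vasa-Cre library. The collagen share of summed RPKM, which needs no read counts, was 0.423% and 0.437%. The chains spanned a wide range. *Col1a2* ranked 107 among all entries by control RPKM and *Col3a1* 127, whereas *Col19a1*, which encodes a chain found at basement membrane zones, rested on 1 read in each library.

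**Figure D1:**
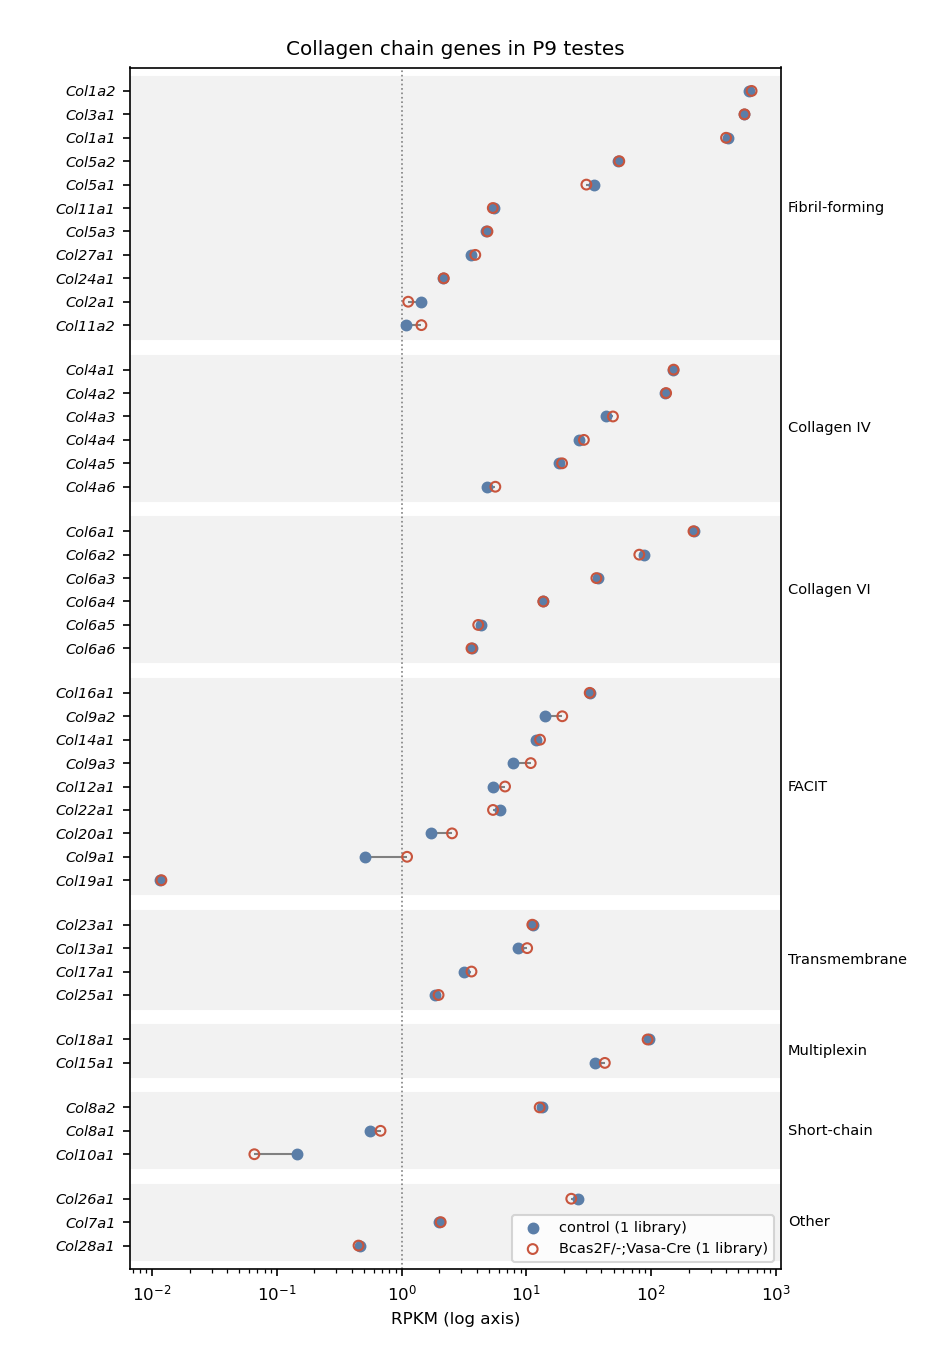
RPKM (log axis) of the 44 collagen chain genes in the control library (filled) and the Bcas2F/-;Vasa-Cre library (open), grouped by sub-family and ordered by mean RPKM within each. The dotted line stands at 1 RPKM. For most chains the symbols overlap, with Col1a2 at 614 and 639 RPKM at the top, and the widest separations between symbols lie among low chains such as Col9a1 (0.514 and 1.11).

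No collagen chain gene above the minimum level differed by more than 1.5-fold between the libraries as deposited. Of the 44 genes, 39 had a mean of 1 RPKM or more, and 0 of these 39 were more than 1.5-fold lower, where 1.69% of all 14831 genes were, and 0 were more than 1.5-fold higher, where 1.57% were. Among the 22 chains with a mean of 10 RPKM or more, 0 were past 1.5-fold in either direction, beside 0.761% of all genes lower and 0.196% higher at that level. At background shares this low, the absence of calls does not set collagens apart from other genes. The log2 ratios ran from −0.20 to 0.44 with a median of 0.03, while the median of all 14831 genes was 0.02. Of the 39, 16 were below 0 (41.0%) and 23 above (59.0%), close to the 46.3% and 53.7% of all genes. Once each library was rescaled to the same sum of RPKM, 40 collagen genes passed the minimum, 10 of them below 0 and 30 above, where 40.7% of all 16133 genes were below and 59.3% above, and 1 (*Col9a1*) was more than 1.5-fold higher, where 2.69% of all genes were. The log2 ratios had an SD of 0.156 across the 39 collagen genes and 0.259 across all genes, and among genes with a mean of 50 RPKM or more the SD was 0.0537 for 9 collagen genes and 0.155 for all 2661. These SDs were not matched on reads or length. Among other protein-coding genes the SD was 0.264 for a longest transcript under 2000 bases and 0.161 from 6000 bases. The 22 collagen genes in that longest class had an SD of 0.114.

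**Figure D2:**
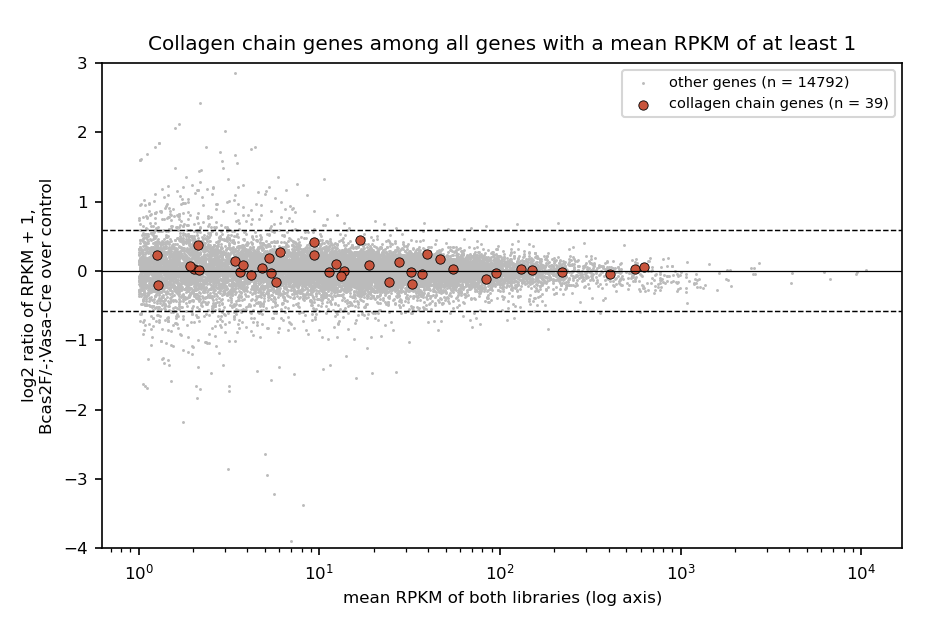
Log2 ratio of RPKM + 1 (Bcas2F/-;Vasa-Cre over control) against mean RPKM (log axis) for the 39 collagen chain genes (red) and 14792 other genes (grey) with a mean of 1 RPKM or more. Dashed lines mark 1.5-fold, and all 39 collagen points lie between them, from −0.20 to 0.44.

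Counting error alone was narrow enough to resolve small differences in the deeply covered chains. The interval lay wholly above 0 for 11 of the 39 genes (19.8% of the 14407 genes with recovered reads did so) and wholly below 0 for 4 (17.9% of all did so). For the other 24 it included 0. Where more than 1 read count fits the RPKM values, as for *Col22a1* among the 4, the interval rests on the count used. Such an interval says only that 2 libraries differed by more than their reads would scatter, and the spread between mice was not measured.

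The fibril-forming chains were the most abundant and were nearly level between the genotypes. All 11 had a mean of 1 RPKM or more, 4 were below 0 and 7 above, and the median log2 ratio was 0.02. *Col1a2* and *Col1a1* encode the chains of collagen I, the main fibril of most connective tissues. *Col1a2* (chr6:4504814-4541544) had 614 RPKM in control and 639 RPKM in Bcas2F/-;Vasa-Cre testes, a log2 ratio of 0.06. *Col1a1* (chr11:94936224-94953042) went the other way, with 413 and 399 RPKM and a log2 ratio of −0.05. Both counting intervals left out 0, from 0.03 to 0.08 for *Col1a2* and from −0.08 to −0.02 for *Col1a1*, but after rescaling to the same sum of RPKM the interval of *Col1a1* held 0 (log2 ratio −0.02, from −0.06 to 0.01). *Col3a1*, which forms thin fibrils in soft tissue, had 551 RPKM in control and 560 RPKM in Bcas2F/-;Vasa-Cre testes (0.02).

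Collagen V sits inside collagen I fibrils and limits their width, and its 2 main chains did not move alike. *Col5a2* had 54.3 RPKM in control and 55.6 in Bcas2F/-;Vasa-Cre testes (0.03). *Col5a1* was lower, with 34.8 and 30.3 RPKM, and its log2 ratio of −0.20 (counting interval −0.28 to −0.13) was the lowest of any chain with a mean of 10 RPKM or more. The remaining fibril-forming chains, *Col5a3*, *Col11a1*, *Col11a2*, *Col24a1*, *Col27a1* and *Col2a1*, lay between 1.08 and 5.49 RPKM in control testes. *Col2a1*, the cartilage fibril collagen, rested on 46 and 35 reads and gave a log2 ratio of −0.20, with a counting interval from −1.03 to 0.31 that spans both directions.

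The collagen IV chains, the network of the basement membrane, all had log2 ratios above 0, from 0.01 to 0.19 with a median of 0.11. Of all genes 53.7% were above 0. The longest transcript of each of the 6 had more than 6000 bases, and other protein-coding genes of that length had a median of 0.07. *Col4a1* and *Col4a2* lay below that median. After all genes had been centred on their median, 5 of the 6 remained above it and *Col4a1* came to −0.01. The 2 chains of the common network were the highest and hardly differed. *Col4a1* had 150.8 RPKM in control and 151.5 RPKM in Bcas2F/-;Vasa-Cre testes (0.01), and *Col4a2* had 129.0 and 131.9 (0.03). *Col4a3*, *Col4a4* and *Col4a5* encode the chains of the network that specialised membranes such as the kidney filter use and that is also found around seminiferous tubules. *Col4a3* had 43.8 RPKM in control and 49.5 in Bcas2F/-;Vasa-Cre testes (0.17, counting interval 0.10 to 0.25). *Col4a4* had 26.4 and 28.9 RPKM (0.13, counting interval 0.07 to 0.20). For both of these chains the interval stayed above 0. *Col4a5* had 18.2 and 19.3 RPKM (0.08), with an interval that included 0. *Col4a6*, the partner of *Col4a5* in a further network, was the lowest of the 6, with 4.82 and 5.64 RPKM (0.19, counting interval 0.01 to 0.44).

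The collagen IV genes lie in head-to-head pairs that are transcribed away from each other. *Col4a1* and *Col4a2* overlap by 22 bases at their starts on chromosome 8, and *Col4a6* and *Col4a5* are 1308 bases apart on the X chromosome. *Col4a4* (chr1:82448423-82586849, minus strand) and *Col4a3* (chr1:82586921-82722059, plus strand) are separated by 71 bases, the shortest gap between non-overlapping neighbours among the collagen genes, and their log2 ratios were alike (0.13 and 0.17). The bases between their annotated starts, from the RefSeq promoter window of *Col4a4* on GRCm38, are shown on the plus strand because they belong to both promoters.
Col4a4-Col4a3, chr1:82586850-82586920, plus strand: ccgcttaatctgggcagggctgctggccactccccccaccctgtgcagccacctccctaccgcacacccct

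Neither CCAAT nor the GC box letters GGGCGG occurred in these 71 bases on either strand. Promoter windows were given for 35 of the 44 collagen genes, some with more than 1 start, and in the 250 bases before the start CCAAT stood on either strand in 13 of 38 windows (34.2%, beside 33.8% of 32851 windows of all genes), TATAA in 7 (18.4%, beside 22.8%) and GGGCGG in 22 (57.9%, beside 32.7%). Other collagen genes are neighbours too. *Col3a1* and *Col5a2* adjoin on chromosome 1 with log2 ratios of 0.02 and 0.03, and *Col9a1* and *Col19a1* adjoin on the same chromosome. *Col6a2* and *Col6a1* adjoin on chromosome 10, and *Col6a6*, *Col6a5* and *Col6a4* lie in a row on chromosome 9.

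**Figure D3:**
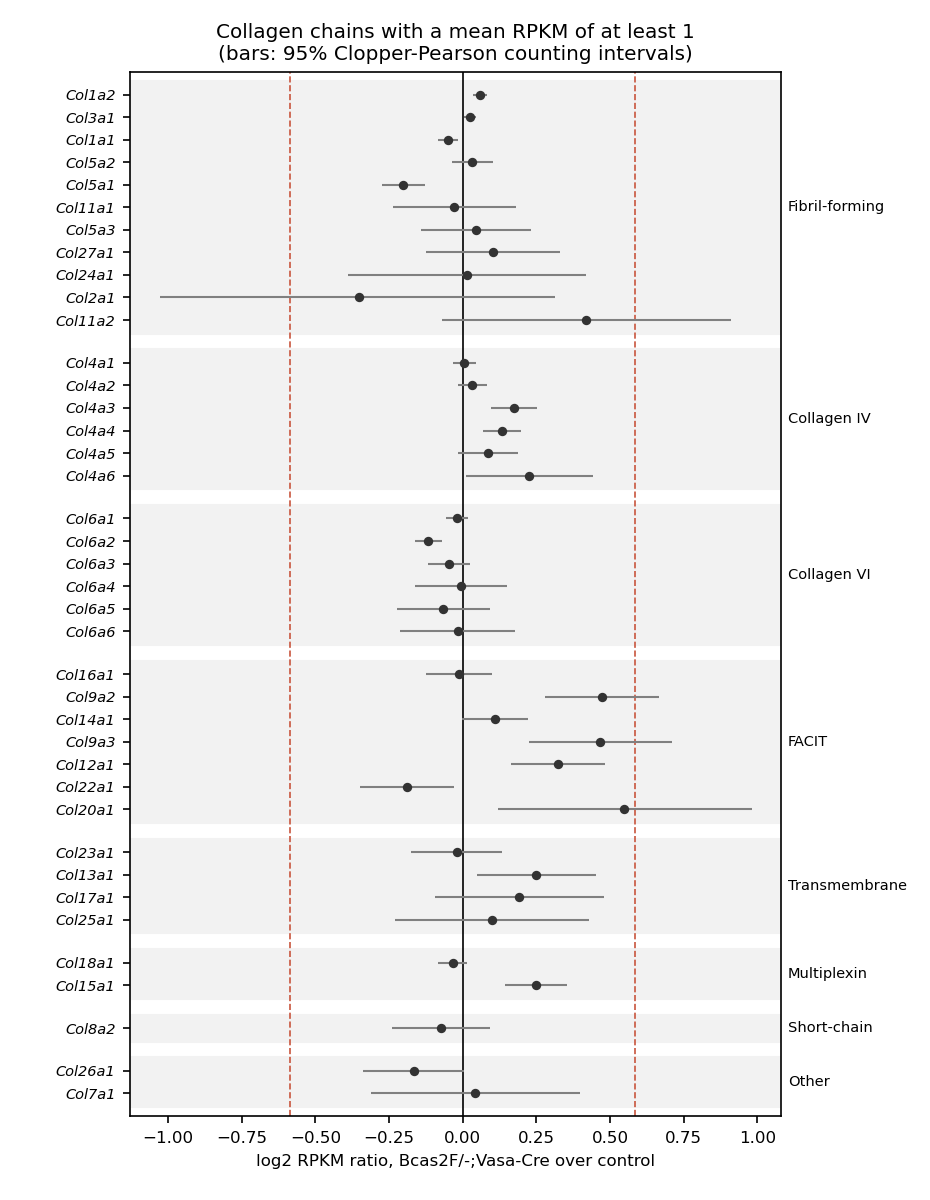
Log2 RPKM ratio without a pseudocount (Bcas2F/-;Vasa-Cre over control, 1 library each) of the 39 collagen chain genes with a mean of 1 RPKM or more, by sub-family. Bars are 95% Clopper-Pearson intervals for counting error, and dashed lines mark 1.5-fold. All 6 collagen IV points lie right of 0 (5 after centring all genes on their median), all 6 collagen VI points lie left of it (3 after rescaling to the same sum of RPKM), and Col20a1 (0.55), Col9a2 (0.47) and Col9a3 (0.47) stand farthest to the right with intervals clear of 0.

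The collagen VI chains, which assemble into beaded microfibrils around cells, all had log2 ratios below 0, from −0.12 to −0.01 with a median of −0.03, although 3 of the 6 were above 0 once each library was rescaled to the same sum of RPKM. Of all genes 46.3% were below 0 before rescaling. *Col6a1* had 221 RPKM in control and 219 in Bcas2F/-;Vasa-Cre testes (−0.02). *Col6a2* had 87.2 and 80.4 RPKM (−0.12), and *Col6a3* had 37.6 and 36.4 RPKM (−0.04). Only the counting interval of *Col6a2* left out 0 (−0.16 to −0.07). *Col6a4* was at 13.7 RPKM in both libraries (−0.01). *Col6a5* and *Col6a6*, which can each replace the *Col6a3* chain in the microfibril, were at 4.31 and 3.68 RPKM in control testes, and part of their sequence is shared. The read count of *Col6a5* was not unique. Whole reads came out at 3 lengths near the mean of its transcripts, and 690 and 640 reads are 1 of the pairs, all with the same ratio.

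The largest differences were among the FACITs, collagens that attach to the surface of fibrils and whose helix is interrupted. Of 9 such genes 7 had a mean of 1 RPKM or more, 5 of these were above 0 and 2 below, and their median was 0.28. Collagen IX, a heterotrimer known from cartilage, was higher in Bcas2F/-;Vasa-Cre testes in all 3 chains. *Col9a2* (chr4:121039385-121055322) had 13.99 RPKM in control and 19.40 RPKM in Bcas2F/-;Vasa-Cre testes, from 387 and 521 reads, and its log2 ratio of 0.44 was the highest of the 39 on the RPKM + 1 scale. Without a pseudocount it was 0.47 (counting interval 0.28 to 0.67), below the 0.55 of *Col20a1* (0.12 to 0.98). *Col9a3* had 7.85 and 10.8 RPKM, from 246 and 330 reads (0.42, counting interval 0.22 to 0.71). *Col9a1*, below a mean of 1 RPKM, had 0.514 and 1.11 RPKM, from 22 and 46 reads, with a log2 ratio of 0.48 (1.11 without a pseudocount, counting interval 0.34 to 1.91). The 3 genes are on chromosomes 4, 2 and 1. The ratio of *Col9a2* to *Col9a3* was 1.78 in control and 1.79 in Bcas2F/-;Vasa-Cre testes, so these partners kept their proportion while both were higher.

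Reads on *Col9a3* cannot all be told apart from those of *Tcfl5*, a gene on the other strand that overlaps 6.07% of its exon bases, because the sources used here do not state that counting used strand. *Tcfl5* was lower in Bcas2F/-;Vasa-Cre testes, with 25.9 RPKM in control and 16.6 RPKM in Bcas2F/-;Vasa-Cre testes (−0.61), the opposite direction to *Col9a3*. Markers of cartilage and bone were near 0. Of 6 such markers (*Acan*, *Sox5*, *Comp*, *Matn1*, *Ibsp* and *Bglap*) 1 passed a mean of 1 RPKM, *Sox5* at 2.21 and 2.31 RPKM, *Matn1* was listed at 0 in both libraries, and the 6 summed to 3.87 and 3.72 RPKM. *Sox9*, a regulator of collagen IX and II in cartilage and a Sertoli cell gene in the testis, had 28.5 RPKM in control and 35.1 RPKM in Bcas2F/-;Vasa-Cre testes (0.29), while *Col2a1* was at 1.44 and 1.13 RPKM. Whether the Sertoli or any other cells account for the collagen IX values was not tested.

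The other FACIT chains differed in both directions. *Col16a1* had 32.5 and 32.2 RPKM (−0.01) and *Col14a1*, a binder of fibril surfaces, had 11.9 and 12.9 RPKM (0.10). The following 3 chains were singled out after their values were seen, because their intervals left out 0. *Col12a1*, a long chain on the surface of collagen I fibrils, had 5.40 RPKM in control and 6.75 in Bcas2F/-;Vasa-Cre testes (0.28, counting interval 0.16 to 0.48). *Col20a1* had 1.74 and 2.54 RPKM from 79 and 112 reads (0.37, counting interval 0.12 to 0.98). *Col22a1*, found at tissue junctions, was the only FACIT whose interval lay below 0, with 6.17 and 5.41 RPKM (−0.16, counting interval −0.35 to −0.03). Its read count was not unique, as 3 lengths near the mean of its transcripts gave whole reads. Fewer reads would widen this interval, so its place below 0 rests on the length used.

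The multiplexins, basement membrane collagens whose ends can be cleaved into endostatin and related fragments, differed from each other. *Col18a1* had 96.0 RPKM in control and 93.7 RPKM in Bcas2F/-;Vasa-Cre testes (−0.03, counting interval −0.08 to 0.01). *Col15a1* had 35.8 and 42.6 RPKM (0.24, counting interval 0.14 to 0.35). *Col15a1* thus had the second highest log2 ratio, after *Col9a2*, among the 22 chains with a mean of 10 RPKM or more.

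The transmembrane collagens were low to moderate, 3 of the 4 above 0, and their median was 0.11. *Col23a1* had 11.3 RPKM in control and 11.2 in Bcas2F/-;Vasa-Cre testes (−0.02). *Col13a1*, which sits in cell membranes at adhesion sites and was named after its interval was seen to leave out 0, had 8.54 and 10.2 RPKM (0.23, counting interval 0.05 to 0.45). *Col17a1* and *Col25a1* were at 3.18 and 1.85 RPKM in control testes, with intervals that included 0.

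Among the remaining chains *Col26a1*, described in testis and ovary, had 25.7 RPKM in control and 22.9 RPKM in Bcas2F/-;Vasa-Cre testes (−0.16, counting interval −0.34 to 0.00448). *Col8a2*, a short chain of network collagen, had 13.5 and 12.8 RPKM (−0.07), and its partner *Col8a1* was much lower, at 0.560 and 0.679 RPKM. *Col7a1*, the anchoring fibril chain of skin, with 119 exons the gene with the most, was at 2.00 and 2.06 RPKM (0.03). Below a mean of 1 RPKM were 5 genes, *Col8a1*, *Col9a1*, *Col28a1*, *Col10a1* and *Col19a1*. *Col28a1* rested on 16 and 15 reads and *Col10a1*, the collagen of cartilage about to turn to bone, on 9 and 4, a log2 RPKM ratio of −1.13 with a counting interval from −3.28 to 0.71, so no difference was detectable at this depth.

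Chains that share a trimer were compared within each library, per kilobase. The RPKM ratio of *Col1a1* to *Col1a2* was 0.673 in control and 0.624 in Bcas2F/-;Vasa-Cre testes, although the protein holds more of the first chain. The ratio of *Col4a1* to *Col4a2* was 1.17 and 1.15, that of *Col4a3* to *Col4a4* was 1.66 and 1.71, and that of *Col4a5* to *Col4a6* was 3.77 and 3.43. For 9 of the 10 pairs the ratio in Bcas2F/-;Vasa-Cre testes was 0.849 to 1.28 times that in control, with *Col5a1* to *Col5a2* lowest (0.641 and 0.545) and *Col8a1* to *Col8a2* highest (0.0416 and 0.0531). The 1 pair outside was *Col9a1* to *Col9a3* (0.0655 and 0.102), which rests on 22 and 46 reads of *Col9a1*. With 1 added to each RPKM that pair's ratios were 0.171 and 0.178, and those of *Col8a1* to *Col8a2* were 0.108 and 0.122. The ratio of *Col6a1* to *Col6a2* was 2.54 and 2.72, and that of *Col6a1* to *Col6a3* was 5.89 and 6.00.

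These levels depend on the gene length the authors divided by. For 22 of the 44 genes the length recovered from the values equalled, to the nearest base, the mean length of the gene's transcripts in GENCODE M21, short fragments included. More than 1 length near that mean gave whole reads for 26 genes, and the nearest one was then used. Lengths farther from it were not counted. The longest transcript was up to 3.33 times as long as the recovered length. For *Col1a1* it was 1781 bases against a longest transcript of 5930, so its RPKM is higher than a full-length count would give. With the longest transcript instead, *Col3a1* came before *Col1a2*, the ratio of *Col1a1* to *Col1a2* in control testes was 0.481, and that of *Col4a3* to *Col4a4* turned from 1.66 to 0.789. The length cancels out in an RPKM ratio between the libraries without a pseudocount, but not in the log2 ratio of RPKM + 1 or in the minimum on mean RPKM.

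Collagen genes were also set beside other genes with as many exons. Among protein-coding genes with at least 40 exons, the 28 collagen genes with a mean of 1 RPKM or more had a median log2 ratio of 0.03 (SD 0.125) and the 240 other genes had 0.02 (SD 0.178), of which 2 were past 1.5-fold. With 20 to 39 exons, 9 collagen genes had a median of −0.01 and 1691 other genes 0.03. Transcript length moved with the log2 ratio across other genes, whose median was −0.05 for a longest transcript under 2000 bases and 0.07 from 6000 bases. The 22 collagen genes in that longest class had a median of 0.03. From 2000 to 4000 bases, 4 collagen genes had a median of 0.32 beside −0.01 in other genes, and from 4000 to 6000 bases 13 had −0.02 beside 0.04. Gene-level values count reads over all exons and do not show whether any exon was skipped or intron kept.

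The enzymes and chaperones that modify and process collagen chains also had small log2 ratios. Of 30 listed genes 24 had a mean of 1 RPKM or more, 8 were below 0 and 16 above, and the median was 0.06. Of all genes 53.7% were above 0. Past 1.5-fold were 0 of the 24, where 1.69% of all genes were lower and 1.57% higher by that much. Shares this low do not set the 24 apart. The counting interval lay wholly above 0 for 8 and wholly below 0 for 2, beside 19.8% and 17.9% of all genes with recovered reads. *P4hb*, a subunit of the prolyl hydroxylase that stabilises the helix, was the highest, with 358 RPKM in control and 317 RPKM in Bcas2F/-;Vasa-Cre testes (−0.17). *Plod1*, a lysyl hydroxylase, had the lowest log2 ratio, with 49.2 and 41.8 RPKM (−0.23). *Loxl2*, which crosslinks collagen IV, had the highest, with 2.42 and 3.11 RPKM (0.26).

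The laminins, nidogens, perlecan and agrin, which build the basement membrane together with collagen IV, had a median of 0.01 over 13 genes, 5 below 0 and 8 above, and this median was −0.00221 after all genes had been centred on theirs. *Lamb1* was the highest at 152 and 149 RPKM (−0.02). *Hspg2*, which encodes perlecan, was lowest by log2 ratio at 22.8 and 21.2 RPKM (−0.10), and *Lamb2* was highest at 24.8 and 29.5 RPKM (0.24). None of the 13 was past 1.5-fold, where 1.69% of all genes were lower and 1.57% higher by that much.

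Of 7 collagen receptor genes 6 were above 0, where 53.7% of all genes were, with a median of 0.12. *Itgb1*, the integrin subunit common to the collagen-binding integrins, had 306 RPKM in control and 333 in Bcas2F/-;Vasa-Cre testes (0.12), *Ddr1*, a collagen-activated kinase, had 90.6 and 105 RPKM (0.20), and *Mrc2*, which takes up collagen fragments, had 13.1 and 11.7 RPKM (−0.15). Proteases and their inhibitors had a median of 0.12 over 10 genes. *Timp2* was the highest at 92.6 and 103 RPKM (0.16), *Ctsk* had the largest log2 ratio at 8.06 and 10.02 RPKM (0.28), and *Mmp16* the smallest at 3.58 and 2.60 RPKM (−0.35). *Mmp13*, an interstitial collagenase, was listed at 0 in both libraries.

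Other matrix genes that bind or accompany collagens had a median of −0.04 over 16 genes. More than 1.5-fold lower was 1 of them, where 1.69% of all genes were, and 0 were more than 1.5-fold higher, where 1.57% were. *Thbs1*, a secreted glycoprotein that binds collagen and activates TGF-β, had 15.8 RPKM in control and 5.29 RPKM in Bcas2F/-;Vasa-Cre testes (−1.41). *Sparc*, a collagen-binding protein of the basement membrane, was the highest at 1871 and 1880 RPKM (0.01), and *Vcan* had the largest log2 ratio at 8.44 and 9.87 RPKM (0.20). Genes that regulate collagen transcription or translation had a median of 0.07 over 13 genes, 4 below 0 and 9 above, beside 53.7% of all genes above. Among them *Smad4*, which carries TGF-β signals into the nucleus, was the highest by mean at 75.1 and 78.9 RPKM (0.07), *Smad3* had the largest log2 ratio at 61.3 and 70.4 RPKM (0.20), and *Cebpb* the smallest at 2.44 and 1.89 RPKM (−0.25).

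**Figure D4:**
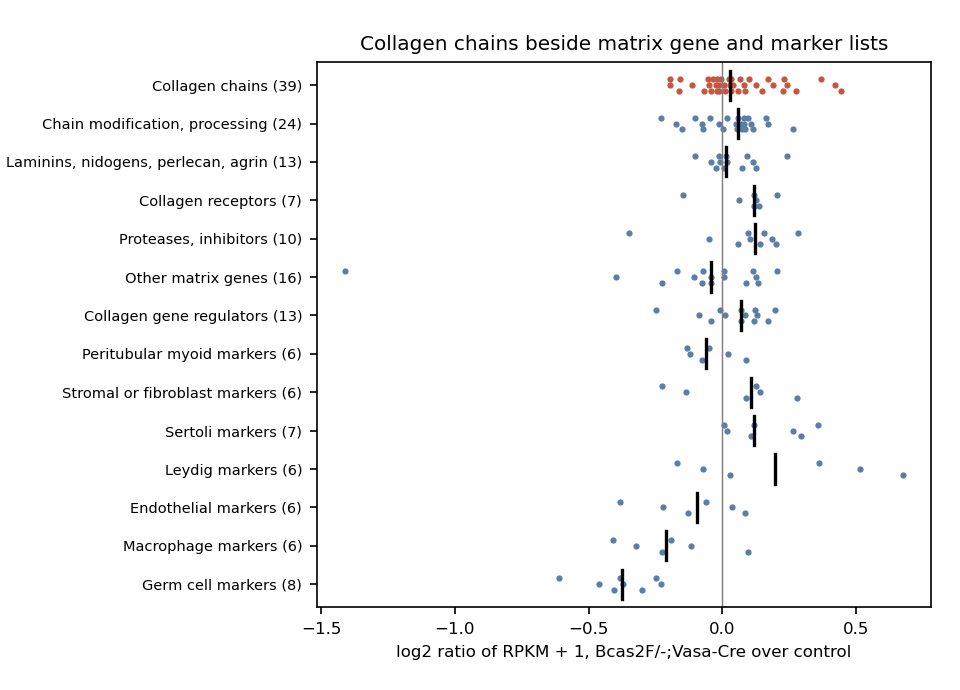
Log2 ratio of RPKM + 1 (Bcas2F/-;Vasa-Cre over control) of each gene with a mean of 1 RPKM or more in the collagen list, 6 lists of related genes and 7 cell type marker lists. The number of genes stands in parentheses and black bars mark medians. The collagen median (0.03) is near 0, the Sertoli (0.12) and Leydig (0.20) marker medians are above it and the germ cell marker median (−0.38) is below it.

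Cell type markers moved beside these values. All 8 germ cell markers were lower in Bcas2F/-;Vasa-Cre testes, from −0.61 for *Stra8* to −0.23 for *Tex101*, and their summed level was 531 RPKM in control and 404 RPKM in Bcas2F/-;Vasa-Cre testes. The paper's replicated real-time RT-PCR at P9 gave similar mRNA levels in both genotypes for *Ddx4* (Mvh), *Sohlh1*, *Kit*, *Dazl* and *Stra8*. It gave a lower level in Bcas2F/-;Vasa-Cre testes for *Sycp3* (Scp3). The values here rest on 1 library per genotype. All 7 Sertoli markers with a mean of 1 RPKM or more were above 0 (0.01 to 0.36, with 6 of 7 above 0 after centring), and the 8 listed summed to 3338 and 3632 RPKM, with *Rhox5* listed at 0 in both libraries. Peritubular myoid markers summed to 539 and 504 RPKM (4 of 6 below 0, −0.13 to 0.09). The stromal or fibroblast markers summed to 387 and 426 RPKM (4 of 6 above 0, −0.22 to 0.28). Leydig markers summed to 387 and 431 RPKM (4 of 6 above 0, −0.17 to 0.68), endothelial markers to 56.4 and 50.3 RPKM (4 of 6 below 0) and macrophage markers to 66.9 and 56.7 RPKM (5 of 6 below 0). The collagen genes, at 2705 and 2740 RPKM in sum, differed less in proportion to their sum than the markers of any of these 7 cell types. This was not particular to them. The chain modification and processing genes (1420 and 1429 RPKM) and the other matrix genes (2795 and 2765 RPKM) differed less still. The collagen sum also rests mostly on *Col1a2*, *Col3a1* and *Col1a1*. Red cell markers summed to 964 and 943 RPKM. In RNA of a whole testis fewer cells of a type and less RNA per cell cannot be told apart, and the part of cell makeup in the collagen values was not tested.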

How the data were processed

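Whole testes were sequenced from P9 mice, 1 library per genotype. Per the study's methods and the submitters' processing notes, the authors aligned paired-end reads with TopHat2 2.0.9 to mm10, used HTSeq for counting and deposited RPKM, in which each gene's reads are scaled to its length and the library's depth. RPKM values remove gene length and depth but not differences in RNA composition. Of 39695 identifiers, 37606 (94.7%) matched GENCODE M21 on GRCm38.

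Log2 ratios of RPKM + 1 were computed at a mean RPKM from 1. Reads were recovered as whole numbers (tolerance 0.001) from the library size at which 83.5% (control) and 83.3% (Bcas2F/-;Vasa-Cre) of genes with 1 transcript came out whole, and the code was tested on simulated data. Intervals cover counting error only, as each genotype had 1 library. The reads carry no molecular identifiers, so copies of 1 molecule could count as separate reads and make the intervals too narrow. Members and lists were chosen with earlier results of these data known. Named were *Bcas2*, chains with a mean RPKM from 10 and assembling pairs, and of each list the highest, largest and smallest. The tools were numpy 2.4.6, pandas 2.3.3, scipy 1.17.1 and matplotlib 3.10.9 under Python 3.11.15.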

Additional observations from a re-analysis of the deposited data

How the results depend on the processing

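Alternatives were pseudocounts of 0.1 and 0.01, all genes centred on their median, an RPKM total of 1000000 in each library, no filter, a mean RPKM from 5, and at least 30 recovered reads. Of 70 values of the collagen counts and list medians under these, 68 were kept. Counts were kept within 1.5 times the main count, and medians within the median counting half-width of the list's single genes. Rescaled RPKM sums gave the other 2, with 10 instead of 16 collagen genes below 0 and 1 instead of 0 genes more than 1.5-fold higher, *Col9a1*, which then had a mean above the minimum. For the collagen median of 0.03 that single-gene half-width was 0.157, so even a change of sign would have counted as kept. It is not the counting error of a median over a list, and the list medians could hardly fail this limit. The median of the laminin, nidogen and perlecan list changed sign (0.01 to −0.00221) after centring and was counted as kept. Of single genes, *Col1a2* (0.09) and *Col3a1* (0.05) moved beyond counting error when rescaled. Rescaling shifts the log2 ratios of all well covered genes by nearly the same amount, so this reflects the narrow intervals of these deeply covered chains. Of the 20 ratios between partner chains, 6 moved beyond counting error with 1 added to each RPKM (those of *Col4a5* to *Col4a6*, *Col8a1* to *Col8a2* and *Col9a1* to *Col9a3*) and 16 with the longest transcript's length, an alternative chosen after seeing the data. No library could be left out. No paired analysis was possible because each genotype had 1 library and the labels give no replicate number. Depth limits the 5 genes below a mean of 1 RPKM.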
